A study of Mus musculus with 4 samples.

Results

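The azurophil granule genes Mpo, Elane, Prtn3, Ctsg, Ms4a3 and Prss57 were taken by name, with no threshold on their values, and are 6 of the 32285 genes counted in each cell. Their transcripts were followed in single Kit+ bone marrow cells in which the histone methyltransferases MLL3 and MLL4 were intact, deleted or altered by the change the labels call SI. All 6 had counts in every library. Levels are given as CPM, counts of unique molecular identifiers (UMIs) scaled to the same total in each group of cells. The 5′ kit counts each captured molecule once, so the counts were not divided by transcript length, and libraries are compared gene by gene.

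Azurophil, or primary, granules are the first granules that a neutrophil precursor makes, at the promyelocyte stage, and they carry the enzymes with which neutrophils kill ingested microbes. Their genes are switched on in granulocyte and monocyte progenitors and switched off again as the cell goes on to make the later, secondary granules with lactoferrin and other contents. Mpo encodes myeloperoxidase, the haem enzyme that makes hypochlorous acid. Elane, Prtn3 and Ctsg encode the serine proteases neutrophil elastase, proteinase 3 and cathepsin G, which are activated by the protease encoded by Ctsc and packed on serglycin. Prss57 encodes neutrophil serine protease 4, and Ms4a3 a membrane protein of granulocyte and monocyte progenitors that is used as a marker of them.

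Each of the 4 libraries stood for 1 group, with marrow taken 10 weeks after transplantation and sorted for CD45.2. They were Kit+ libraries from control, Mll3/4 deleted and Mll3/4SI marrow, and a B220lo library from control marrow that is used here only as background. Kit is the stem cell factor receptor of early blood cells, and B220 is carried by B cells and their precursors. What SI stands for is not expanded in the labels, which give neither the deleting agent nor the number of mice behind a library. With 1 library per group no difference between groups could be tested. All 95% intervals below cover counting error only, not the spread between animals. Those of CPM and of ratios count each UMI as independent, so they leave out the spread between cells too.

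After filtering, 11051 control, 13747 deleted and 11501 SI Kit+ cells were kept, with medians of 11594, 6507 and 11969 UMIs, and Kit was detected in 84.7%, 84.1% and 86.8% of them. Of these cells 42, 12932 and 22 carried at least 3000 CPM of 10 B-lineage genes and were set aside, which left 11009, 815 and 11479 cells. Between 2 and 73 cells of each Kit+ library lay within 1.5-fold of that limit. The deleted library stood apart in another way too, since 4 Y-linked genes summed to 147.8 CPM in it and to at most 0.0331 CPM in the other Kit+ libraries. Sex and genotype therefore cannot be told apart. From 178 to 213 kept cell barcodes were shared between each pair of the Kit+ libraries.

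In the GRCm38 annotation (GENCODE M21) the genes lie at 4 places. Prss57 (ENSMUSG00000020323, chromosome 10 from 79781474 to 79790961, minus strand), Prtn3 (ENSMUSG00000057729, chromosome 10 from 79874476 to 79883174, plus strand) and Elane (ENSMUSG00000020125, chromosome 10 from 79886247 to 79888215, plus strand) lie within 106742 bases of each other, and 3072 bases separate Prtn3 from Elane. Mpo was annotated separately (ENSMUSG00000009350, chromosome 11 from 87793581 to 87804413, plus strand), as were Ctsg (ENSMUSG00000040314, chromosome 14 from 56099881 to 56102574, minus strand) and Ms4a3 (ENSMUSG00000024681, chromosome 19 from 11629496 to 11640851, minus strand). All 6 are protein-coding. The annotated 5′ end of the longer Prtn3 transcript overlaps Plppr3 on the other strand, and the end of Prss57 overlaps Fstl3, so reads there could be shared if strand was not used in counting. The submitters' processing notes name mm10 as the build, which has the coordinates of GRCm38.

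The upstream sequences are shown because the members varied together across cells, and 5 of the 6 promoters were present in the RefSeq table (GRCm38.p6). Prss57 was not matched. Each stretch starts 250 bases before the RefSeq start and stops before the annotated exon that follows, which leaves 47 bases for Mpo, 185 for Elane, 197 for Prtn3 and 250 each for Ctsg and Ms4a3. The Prtn3 stretch lies inside the annotated gene, past the first exon of its longer transcript. Capitals mark AGGAAGT, a core of ETS and PU.1 type motifs.
Mpo (chr11:87793534-87793580, plus strand): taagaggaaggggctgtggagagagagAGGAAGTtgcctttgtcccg
Elane (chr10:79886062-79886246, plus strand): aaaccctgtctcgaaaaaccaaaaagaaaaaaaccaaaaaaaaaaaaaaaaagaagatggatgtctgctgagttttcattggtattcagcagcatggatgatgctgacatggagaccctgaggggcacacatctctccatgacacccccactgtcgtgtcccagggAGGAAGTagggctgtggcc
Prtn3 (chr10:79879417-79879613, plus strand): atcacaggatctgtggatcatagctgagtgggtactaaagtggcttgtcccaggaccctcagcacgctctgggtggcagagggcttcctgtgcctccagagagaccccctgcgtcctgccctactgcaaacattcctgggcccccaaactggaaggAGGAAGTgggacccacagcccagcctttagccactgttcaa
Ctsg (chr14:56102575-56102824, minus strand): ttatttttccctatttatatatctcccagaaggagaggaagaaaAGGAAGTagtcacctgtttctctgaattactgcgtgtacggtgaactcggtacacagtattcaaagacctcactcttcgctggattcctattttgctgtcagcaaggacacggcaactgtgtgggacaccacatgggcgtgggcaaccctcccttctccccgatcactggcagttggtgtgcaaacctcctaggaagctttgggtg
Ms4a3 (chr19:11640852-11641101, minus strand): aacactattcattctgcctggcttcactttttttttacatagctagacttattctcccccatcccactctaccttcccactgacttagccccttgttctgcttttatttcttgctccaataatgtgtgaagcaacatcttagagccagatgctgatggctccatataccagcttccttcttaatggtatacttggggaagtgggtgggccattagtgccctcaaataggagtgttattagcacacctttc

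AGGAAGT, searched on both strands and chosen after the sequences were seen, lay in the 250 bases upstream of 4 of the 5 genes and in 7.69% of all 32851 windows of that length. Counted from the RefSeq start it lay from -84 to -78 in Elane and from -94 to -88 in Prtn3, the neighbouring pair on chromosome 10. By that start it lay further out, from -223 to -217 in Mpo and from -206 to -200 in Ctsg, and was not matched in Ms4a3. The GENCODE starts of Mpo and Elane (87793581 and 79886247) lie before the RefSeq ones (87793784 and 79886312), so these distances depend on the start taken. In the letters shown the motif stands close before the annotated exon in both. Elane and Prtn3 also shared TATAAG, 26 and 27 bases before the RefSeq start at its near end. They shared AACGG too, a core of MYB type motifs, from -50 to -46 in Elane and from -55 to -51 in Prtn3. Both motifs lay past the letters shown or at their edge. TATAAN on the sense strand was in 2 of 5 members and 16% of all windows, and AACGG on both strands in 2 of 5 and 14.5%. A RUNX type core, TGTGGT on both strands, was in Ctsg alone of the 5 (14% of all windows), and a C/EBP type core, TTGCNNAA, was in 0 of 5 (9.56%). The motifs can overlap one another, and a match is a run of letters, not a measured binding site.

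Cells were taken by the transcripts they carried. A cell with at least 1 UMI of Hlf, a transcription factor of stem cells, was called Hlf+, and cells with at least 1 UMI of Cd34, Cebpe or F13a1 were called Cd34+, Cebpe+ and F13a1+. Cd34 marks progenitors, Cebpe encodes a transcription factor of neutrophil precursors, and F13a1 marks monocyte progenitors. Fcer1a+ cells, with at least 3 UMIs of the IgE receptor alpha chain gene, stood for mast cell and basophil progenitors. In the order control, deleted and SI there were 2493, 165 and 3238 Hlf+ cells, 6853, 520 and 8795 Cd34+ cells and 2213, 221 and 1643 Cebpe+ cells. F13a1+ cells numbered 2985, 390 and 1912, and Fcer1a+ cells 127, 4 and 2341. Erythroid cells (at least 1 UMI of Klf1 and 3 of Car1), which should lack the members, gave the background.

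The gates overlapped, and their markers did not move alike. Of Hlf+ cells 81.6% in control, 84.2% in deleted and 92.1% in SI were also Cd34+. Of SI Cd34+ cells 21.8% were also Fcer1a+, against 1.46% of control and 0.385% of deleted ones, and 7 mast cell and basophil genes summed there to 1206 CPM in SI, 252 CPM in control and 117 CPM in deleted cells. In Hlf+ cells that list stood at 280.5, 183 and 1027 CPM in control, deleted and SI, while 7 stem cell genes summed to 483, 459 and 469 CPM. The 10 B-lineage genes summed to 220.4 to 349 CPM in the Hlf+, Cd34+, Cebpe+ and F13a1+ cells of the deleted library and to 44.5 to 56.02 CPM in those of control and SI. Erythroid markers, 8 genes, summed in Cd34+ cells to 474, 143 and 224 CPM in control, deleted and SI, 5 megakaryocyte genes to 156, 37.9 and 121 CPM, and 7 monocyte genes to 660.4, 968 and 488 CPM. In Hlf+ cells the erythroid list stood at 815, 255 and 279 CPM. The 3 T or NK cell genes (Cd3e, Nkg7 and Klrb1c) summed in Hlf+ cells to 459, 383 and 82.0 CPM in control, deleted and SI. In Cd34+ cells they summed to 552, 449 and 124 CPM, and in Cebpe+ cells to more, 867, 921 and 390 CPM. Cd3e had no UMI in deleted or SI Hlf+ cells, and Nkg7 alone made up the list in deleted F13a1+ cells. These sums are therefore not read as T or NK cell content. Of Cd34+ cells 36.9%, 52.3% and 18.1% were also F13a1+. Deleted cells thus carried fewer erythroid and megakaryocyte and more monocyte transcripts there. Their parts in the differences below were not tested, apart from the alternative selections given beside them.

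In these overlapping gates member levels were highest in Cebpe+ cells, lower in F13a1+, Cd34+ and Hlf+ cells in that order, and far lower in erythroid cells, in each Kit+ library. Fcer1a+ cells lay below Hlf+ cells for every member but Ms4a3 in control and SI. Both orders depended on the overlap. In cells of 1 gate alone the sum in deleted cells was 65614 CPM for F13a1+ and 54689 CPM for Cebpe+, and Fcer1a+ lay above Hlf+, at 5698 and 1746 CPM in control and 2249 and 2029.5 CPM in SI. The 6 genes together made up 45819 CPM of control, 55599 CPM of deleted and 50332 CPM of SI Cebpe+ cells. In Hlf+ cells they summed to 17101, 24619 and 13117 CPM, and in erythroid cells to 1303, 595 and 1418 CPM, in the same order. The members' share of all kept UMIs was 2.06% in control, 0.501% in the deleted library, most of which was of the B lineage, and 2.09% in SI. In sums over cells, fewer cells carrying a transcript and less transcript per cell cannot be told apart, so levels per cell are given further on.

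**Figure D1:**
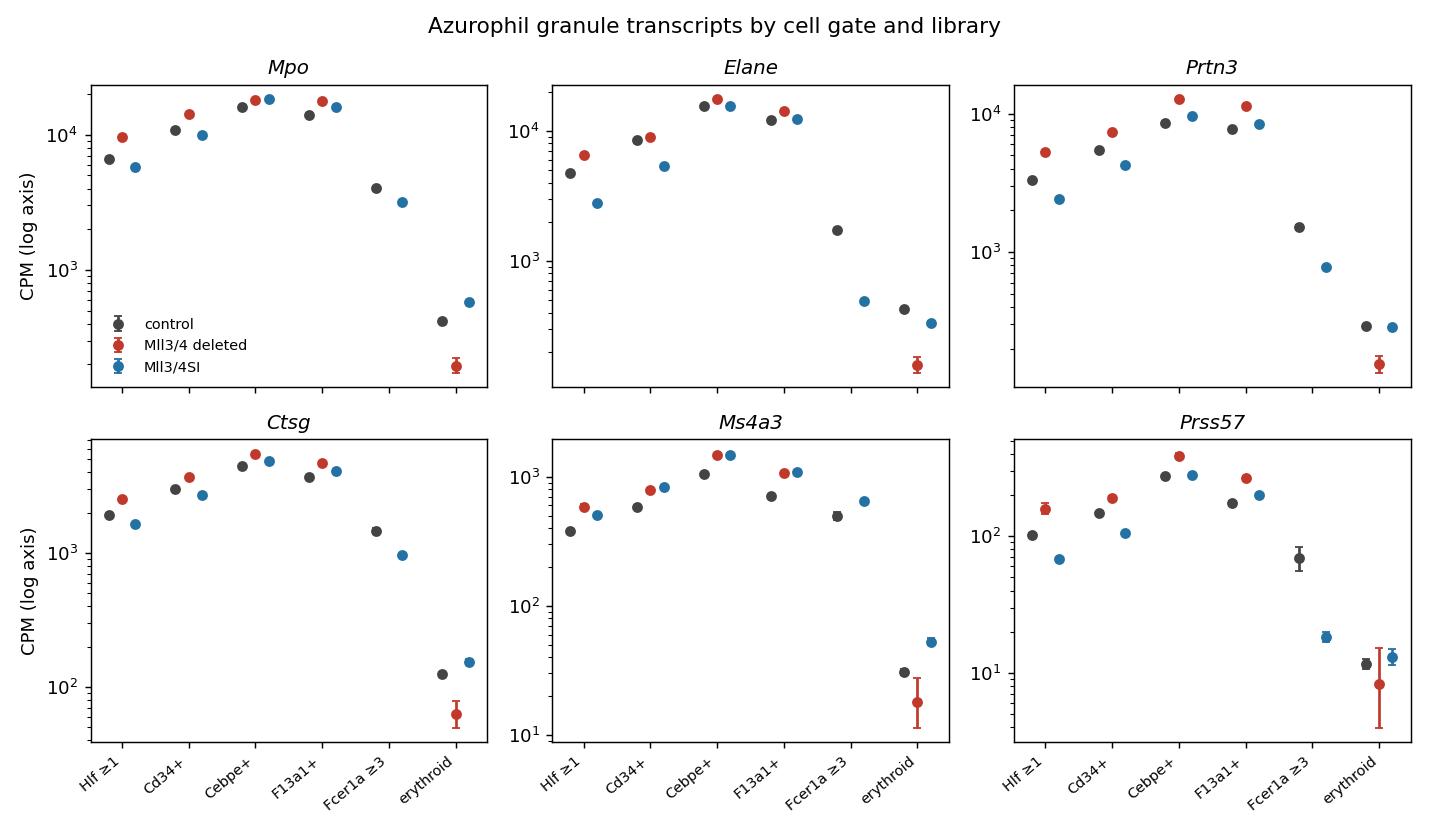
CPM (log axis) of the 6 genes in the 5 cell gates and in erythroid cells of the control, Mll3/4 deleted and Mll3/4SI Kit+ libraries. Points are library sums and bars exact Poisson 95% intervals, often smaller than the point, and the 4 deleted Fcer1a+ cells are not plotted. Mpo rises in control from 6631 CPM in Hlf+ to 15940.1 CPM in Cebpe+ cells, against 418 CPM in erythroid cells.

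Mpo, the myeloperoxidase gene, stood in Hlf+ cells at 6631 CPM in control, 9572 CPM in Mll3/4 deleted and 5729 CPM in Mll3/4SI cells. Its level was 10795, 14160.1 and 10017 CPM in Cd34+ cells, 15940.1, 17981 and 18452 CPM in Cebpe+ cells and 14082, 17917 and 16095 CPM in F13a1+ cells, in the same order. The deleted library was the highest of the 3 in Hlf+, Cd34+ and F13a1+ cells, and SI the lowest in Hlf+ and Cd34+ cells. The CPM ratio of deleted to control was 1.44 (1.42 to 1.46) in Hlf+ and 1.31 (1.30 to 1.32) in Cd34+ cells, and 1.13 and 1.27 in Cebpe+ and F13a1+ cells. For SI it was 0.864 (0.859 to 0.869) and 0.928 (0.925 to 0.930) in the first pair and 1.16 and 1.14 in the second. In deleted cells the Cebpe+ and F13a1+ levels of Mpo had overlapping intervals, 17857 to 18106 and 17819 to 18015 CPM.

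Elane, the neutrophil elastase gene, had the lowest SI ratios of the 6 genes in Hlf+ and Cd34+ cells. In Hlf+ cells it stood at 4751 CPM in control, 6525 CPM in Mll3/4 deleted and 2773 CPM in Mll3/4SI cells, and in Cd34+ cells at 8465, 8938 and 5324 CPM. The SI level was the lowest in both, with ratios to control of 0.584 (0.579 to 0.588) and 0.629 (0.627 to 0.631). In Cebpe+ cells Elane stood at 15542, 17533 and 15616 CPM and in F13a1+ cells at 12144, 14117 and 12421 CPM, and SI lay at 1.005 and 1.02 times control. The deleted ratio was 1.37 (1.35 to 1.39) in Hlf+ cells but 1.06 (1.05 to 1.06) in Cd34+ cells, where it was the smallest of the 6 genes. That last ratio turned to 0.973 when B-lineage cells were not set aside. It turned to 0.972 when cells with a UMI of Fcer1a, Ms4a2, Mcpt8, Prss34, Cma1, Klf1, Car1 or Pf4 were left out.

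Prtn3, the proteinase 3 gene, had larger deleted ratios than Elane and Ctsg in Hlf+, Cd34+, Cebpe+ and F13a1+ cells. It stood in Hlf+ cells at 3312 CPM in control, 5272 CPM in Mll3/4 deleted and 2399 CPM in Mll3/4SI cells, and the deleted ratio was 1.59 (1.56 to 1.62). In Cd34+ cells it stood at 5421, 7428 and 4240 CPM, in Cebpe+ cells at 8600, 12736 and 9643 CPM and in F13a1+ cells at 7775, 11302 and 8419 CPM. The deleted library was highest in each of the 4 gates, with ratios of 1.37, 1.48 and 1.45 in the last 3. SI was lowest in Hlf+ and Cd34+ cells, at 0.724 and 0.782 times control, and lay at 1.12 and 1.08 times control in Cebpe+ and F13a1+ cells.

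Ctsg, the cathepsin G gene, differed from control in the same directions as Mpo in both libraries. Its levels were 1926, 2508 and 1646 CPM in Hlf+, 2984, 3693 and 2706 CPM in Cd34+, 4422, 5479.8 and 4873 CPM in Cebpe+ and 3692, 4712 and 4059 CPM in F13a1+ cells. The deleted ratios were close to each other in these gates, at 1.30, 1.24, 1.24 and 1.28. The SI ratios were 0.855, 0.907, 1.10 and 1.10, below 1 in the first pair and above it in the second.

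Ms4a3, the gene of the membrane protein of granulocyte and monocyte progenitors, was the one member that stood higher in SI than in control in each of the 5 gates, though not in cells that were Fcer1a+ alone. Its levels were 379, 583 and 501 CPM in Hlf+, 577, 789 and 832 CPM in Cd34+, 1041, 1482 and 1466 CPM in Cebpe+ and 714, 1068 and 1078 CPM in F13a1+ cells. The SI ratio was 1.32 (1.29 to 1.35), 1.44 (1.43 to 1.46), 1.41 (1.39 to 1.43) and 1.51 (1.49 to 1.53) in these gates, and it stayed above 1 under all 8 other selections and scalings tried in each of the 4. The deleted library was above control as well, at 1.54, 1.37, 1.42 and 1.496 times. Among erythroid cells, the background, Ms4a3 was higher in SI too, at 52.8 CPM against 30.7 CPM in control. The SI ratio there was 1.72 (1.58 to 1.87). In Fcer1a+ cells Ms4a3 stood at 494 CPM in control and 653 CPM in SI, above its own level in Hlf+ cells. None of the other 5 members showed this in the overlapping gates. In cells of 1 gate alone every member showed it in control, among them Mpo at 1874 and 498 CPM. In SI Mpo and Ctsg then showed it beside Ms4a3, while Elane, Prtn3 and Prss57 did not. In the 350 SI and 24 control cells that were Fcer1a+ alone the SI ratio of Ms4a3 turned to 0.688.

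Prss57, the neutrophil serine protease 4 gene, had the fewest counts, and its intervals were the widest. It stood at 102, 159 and 68.3 CPM in Hlf+ cells, 148, 189 and 105 CPM in Cd34+ cells, 274, 386 and 281 CPM in Cebpe+ cells and 176, 265 and 199 CPM in F13a1+ cells. The deleted ratios were 1.56 (1.41 to 1.72), 1.27 (1.21 to 1.34), 1.41 (1.34 to 1.49) and 1.51 (1.43 to 1.58). The SI ratios were 0.670 (0.636 to 0.705) and 0.707 (0.690 to 0.724) in Hlf+ and Cd34+ cells, both below 1. In Cebpe+ cells the SI ratio was 1.03 (0.996 to 1.06), an interval that includes 1, and in F13a1+ cells 1.13.

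**Figure D2:**
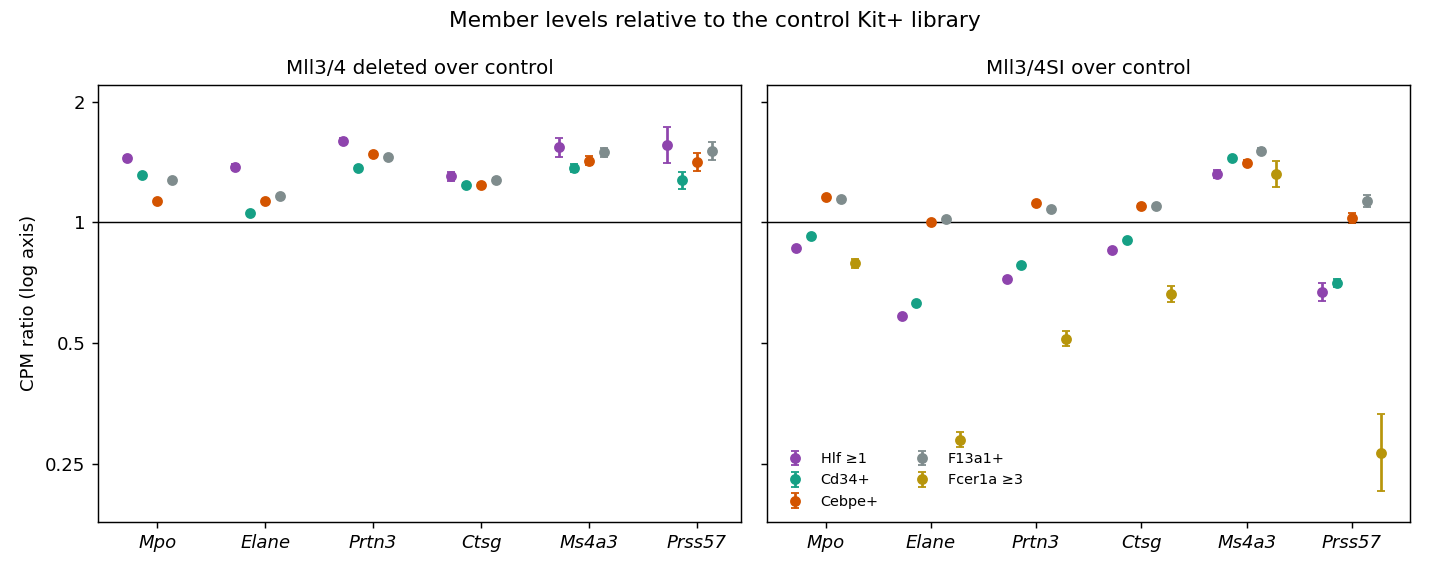
CPM of each gene in the Mll3/4 deleted (left) and Mll3/4SI (right) library over control, on a log axis, by cell gate. Bars are exact conditional 95% intervals for counting error, and the 4 deleted Fcer1a+ cells are not plotted. Every deleted point lies above 1, while the SI points of Mpo, Elane, Prtn3, Ctsg and Prss57 lie below 1 in Hlf+, Cd34+ and Fcer1a+ cells and above it in Cebpe+ and F13a1+ cells.

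In the deleted library all 6 genes were above control in Hlf+, Cd34+, Cebpe+ and F13a1+ cells, beside the lower erythroid and higher monocyte markers of its Cd34+ cells given above. The 9 neutrophil genes summed in these gates, in that order, to 356, 258, 5354 and 836 CPM in deleted cells. In control they summed to 350.3, 349.5, 2560 and 343 CPM, and their part in the member ratios was not tested. Among all genes with at least 100 UMIs in the higher library, 31.9%, 43.9%, 35.3% and 42.9% were above control in the same gates. A ratio of at least 1.5 was reached by 3 of 6 members in Hlf+ cells (Prtn3, Ms4a3 and Prss57), against 0.766% of all genes, and by Prss57 alone in F13a1+ cells (1.24%). It was reached by 0 of 6 in Cd34+ (1.17% of all genes) and 0 of 6 in Cebpe+ cells (0.885%), and no member lay 1.5-fold lower in any of them, where 10.9%, 8.57%, 7.92% and 7.26% of all genes did. The median log2 ratio of the 6 was 0.57, 0.37, 0.40 and 0.45 in the 4 gates, beside -0.0988, -0.0326, -0.0815 and -0.0320 for all genes compared. The deleted library was the smaller, so the limit of 100 UMIs passed genes lower in it more readily. With a limit that favours neither library (a mean CPM worth 100 UMIs in the smaller one), chosen after seeing the data, 55.04%, 54.8%, 51.2% and 53.4% of all genes were above control in the 4 gates, 1.06%, 1.10%, 1.01% and 1.09% by 1.5-fold, and 2.21%, 3.54%, 2.21% and 2.38% were 1.5-fold lower. The medians were then 0.0261, 0.0251, 0.00581 and 0.0156, and the members' own counts were the same.

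The deleted differences depended on which cells were taken. The count of 3 members past 1.5-fold in Hlf+ cells became 1 with 1 more UMI of Hlf required, 1 without the B-lineage gate, 2 with doublets kept and 4 when centred on the median gene. With cells carrying B-lineage transcripts kept, the summed ratio in F13a1+ cells moved from 1.28 to 0.980 and 3 of 6 members were above control. With cells thinned to 3000 UMIs before gating, the summed ratio in Cebpe+ cells moved from 1.21 to 1.02, again with 3 of 6 above control. In cells that were in none of the other 4 gates the ratio was 1.82 for 93 Cd34+ and 2.44 for 62 F13a1+ cells. In the 17 deleted cells that were Hlf+ alone, Mpo lay at 3.55 times control and Prtn3 at 0.605 times, and the other 4 lay below control too.

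In the SI library the members split by gate. In Hlf+ and Cd34+ cells 1 of 6, Ms4a3, was above control, against 58.3% and 60.9% of all genes. Elane alone was at least 1.5-fold lower there, against 3.02% and 3.46% of all genes, and 0 of 6 were 1.5-fold higher (3.65% and 4.51%). In Cebpe+ and F13a1+ cells all 6 were above control, against 56.2% and 62.2% of all genes. None reached 1.5-fold in Cebpe+ cells (2.5% higher and 1.56% lower among all genes), and Ms4a3 alone was 1.5-fold higher in F13a1+ cells (3.3%). The median log2 ratio was -0.35 and -0.25 in the first pair and 0.15 and 0.16 in the second, with 0.0294, 0.0429, 0.0223 and 0.0444 for all genes. The deleted and SI ratios share the control library and are not independent.

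The lower SI sums in Hlf+ and Cd34+ cells did not hold in every selection of cells. Among cells in none of the other 4 gates the summed SI ratio was 1.76 in 2716 Cd34+ cells, where the 6 genes stood at 20969 CPM against 11889 CPM in control, and 1.16 in 160 Hlf+ cells. Elane then stood at 1.21 times control in Cd34+ and 0.663 times in Hlf+ cells. Cells with a UMI of Fcer1a, Ms4a2, Mcpt8, Prss34, Cma1, Klf1, Car1 or Pf4 were left out in another selection. The summed ratio was then 0.983 in Cd34+ and 0.870 in Hlf+ cells, and Elane lay at 0.803 and 0.712 times control. Mpo and Ctsg lay above control in these Cd34+ cells, at 1.08 and 1.06 times. In Cebpe+ and F13a1+ cells the small SI ratio of Elane turned below 1 in 2 of the 8 alternatives in each gate, and that of Prss57 in 2 of 8 in Cebpe+ cells. The SI ratio of Prtn3 turned to 0.962 in cells that were F13a1+ alone.

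The makeup of the granule message differed between libraries within broad ranges of the members' total. Elane made up 29.8% of the members' UMIs in control, 25.4% in deleted and 22.9% in SI Cd34+ cells. Cd34+ cells without a UMI of Fcer1a, Ms4a2, Mcpt8, Prss34, Cma1, Klf1, Car1 or Pf4 were then grouped by the summed level of the 6 members in the cell. Further genes of other lineages were not asked for. This left 3534 of 6853 control, 382 of 520 deleted and 3718 of 8795 SI Cd34+ cells. The ranges of the sum were wide, and the sum itself holds Elane and Mpo. Cells were not matched between libraries inside a range, so a part of that in the values below was not tested. Between 1000 and 10000 CPM there were 11.3 Elane UMIs per 100 Mpo UMIs in control (989 cells), 4.004 in deleted (50 cells) and 11.8 in SI (1340 cells). Between 10000 and 30000 CPM the values were 36.2, 31.4 and 15.9, from 630, 68 and 573 cells. Elane per Mpo was thus higher in the second of these groups than in the first in all 3 libraries, and there it was lowest in SI. In the first group Elane was sparse. All Cd34+ cells in that range held 3864 Elane UMIs in 1842 control, 56 in 73 deleted and 8395 in 3619 SI cells. Free RNA in the droplets and a cell's own Elane cannot be told apart there.

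From 30000 to 60000 CPM Elane stood at 88.5 UMIs per 100 of Mpo in control, 71.6 in deleted and 61.9 in SI cells. At 60000 CPM and above it stood at 101 (100 to 102), 65.6 (64.4 to 66.8) and 77.6 (77.2 to 78.1), from 437, 65 and 616 cells. In cells rich in granule transcripts both altered libraries thus carried less Elane per Mpo than control. Ms4a3 differed in another way. Between 1000 and 10000 CPM there were 3.76 (3.44 to 4.10) Ms4a3 UMIs per 100 of Mpo in control, 1.73 (1.04 to 2.71) in the deleted library and 12.4 (11.9 to 12.9) in SI. At 60000 CPM and above the values were 5.68, 5.24 and 6.79. The SI excess of Ms4a3 over control was thus larger from 1000 to 10000 CPM than at the top. Below 1000 CPM there were 22.6 (17.2 to 29.5) in control, 88.9 (29.8 to 259.6) in deleted and 31.1 (25.2 to 38.1) in SI, where the SI interval overlapped both others.

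**Figure D3:**
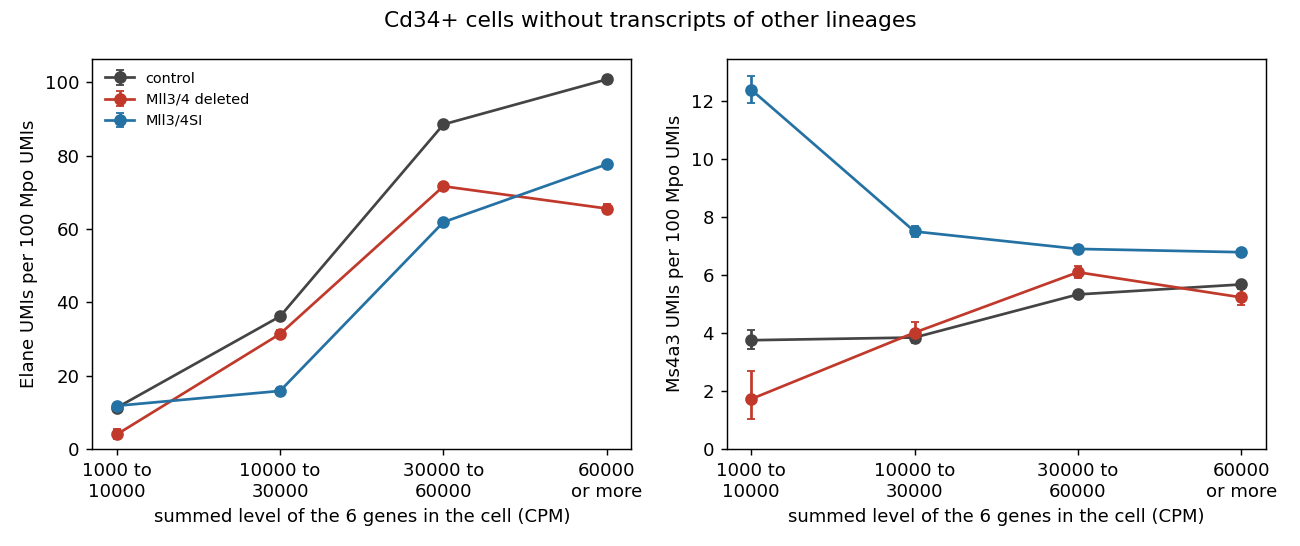
Elane (left) and Ms4a3 (right) UMIs per 100 Mpo UMIs in Cd34+ cells, by the cell's summed CPM of the 6 genes, in the control, Mll3/4 deleted and Mll3/4SI libraries. Cells with a UMI of Fcer1a, Ms4a2, Mcpt8, Prss34, Cma1, Klf1, Car1 or Pf4 were left out. Bars are exact 95% intervals for counting error. SI lies lowest for Elane from 10000 to 60000 CPM, at 15.9 and 61.9, and highest for Ms4a3 in the 4 groups plotted, all from 1000 CPM up.

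From 10000 to 30000 CPM the same order held with all Cd34+ cells, at 37.7, 32.3 and 14.6 Elane UMIs per 100 of Mpo, and in Hlf+ cells, at 38.9, 28.7 and 17.98, where the deleted value rests on 19 cells. Below 1000 CPM the values in Cd34+ cells were 97.04, 186 and 99.3, higher than in the next group up. Erythroid cells carried 425 CPM of Elane and 418 CPM of Mpo in control, and 334 and 579 CPM in SI. At totals this low, and for Elane up to 10000 CPM, free RNA in the droplets and a cell's own transcripts cannot be told apart.

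Summed levels per cell spread widely in the early gates. In Cd34+ cells the 6 genes had a median of 18453 CPM per cell in control, with a range from the 10th to the 90th percentile of 665 to 59640.1 CPM. The median was 33405 CPM in deleted and 6593 CPM in SI cells. The share of Cd34+ cells at 1000 to 10000 CPM was 26.9% in control, 14.04% in deleted and 41.1% in SI, and the share at 30000 to 60000 CPM was 29.7%, 40% and 18.1%. At 60000 CPM and above the shares were 9.72%, 14.6% and 10.2%, and below 1000 CPM 14.7%, 11.9% and 14.997%. The deleted cells thus sat more often than control at 30000 CPM and above. The SI cells sat more often at 1000 to 10000 CPM and less often at 30000 to 60000 CPM, while their shares at the top and the bottom were close to control. In Cebpe+ cells the medians lay closer, at 46292, 52959.6 and 50247 CPM, and in F13a1+ cells at 38723, 47322 and 41242 CPM. In Hlf+ cells they were 2706, 4277 and 2289 CPM, and in erythroid cells 199.6, 66.7 and 347 CPM.

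Shares of cells with a transcript were compared with each cell thinned to 3000 UMIs, which left out 105 control, 7 deleted and 98 SI Cd34+ cells below that depth. Elane was detected in 72.6% (71.5 to 73.6) of control, 75.6% (71.7 to 79.3) of deleted and 62.8% (61.7 to 63.8) of SI Cd34+ cells, and without thinning in 86.7%, 83.5% and 88.5%. Ms4a3 was detected in 52.6%, 62.2% and 61.6%, or 68.2%, 74.8% and 76.1% without thinning. At equal depth the SI library was thus lowest for Elane and above control for Ms4a3, while without thinning it was highest for both. Background in erythroid cells at the same depth was 24.4%, 6.90% and 35.6% for Elane and 5.21%, 1.72% and 9.004% for Ms4a3. Median depth before thinning was 12204, 18714 and 12773 UMIs in Cd34+ cells and 17163, 16802 and 17467 UMIs in erythroid cells.

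All 6 members were found together in 48.1% of control, 62.7% of deleted and 46.7% of SI Cebpe+ cells at 3000 UMIs, and in 20.6%, 28.5% and 14.1% of Cd34+ cells. Prss57 was the member most often missing. It was detected in 52.3%, 67.3% and 50.5% of Cebpe+ cells, where each of Mpo, Elane, Prtn3 and Ctsg was found in 93.6% to 97.5% in all 3 libraries.

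In Hlf+ cells with a single member detected, that member was most often Prtn3. At 3000 UMIs it was detected in 81.9% (80.3 to 83.4) of control, 84.7% (78.2 to 89.8) of deleted and 73.8% (72.2 to 75.3) of SI Hlf+ cells, and Mpo in 70.8%, 66.9% and 72.8%. Without thinning the shares with Prtn3 were 93.6%, 93.9% and 93.98%, and the background in erythroid cells at 3000 UMIs was 23.1%, 12.1% and 32.2%. Prtn3 was thus above background in each library, and lowest in SI at equal depth. Of the Hlf+ cells with exactly 1 member, Prtn3 was that member in 55.96% in control (327 cells), 85.7% in deleted (28 cells) and 34.4% in SI (390 cells). In erythroid cells with exactly 1 member it was Prtn3 in 31.6% of 725, 42.9% of 14 and 25% of 316 cells, and Elane in 34.9%, 21.4% and 36.4%. Elane was thus the gene most often seen alone in the background cells of control and SI, and Prtn3 in Hlf+ cells of every Kit+ library. Below 1000 CPM Prtn3 made up 45.7% of the members' UMIs in control, 74.6% in deleted (47 cells) and 32.8% in SI Hlf+ cells.

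**Figure D4:**
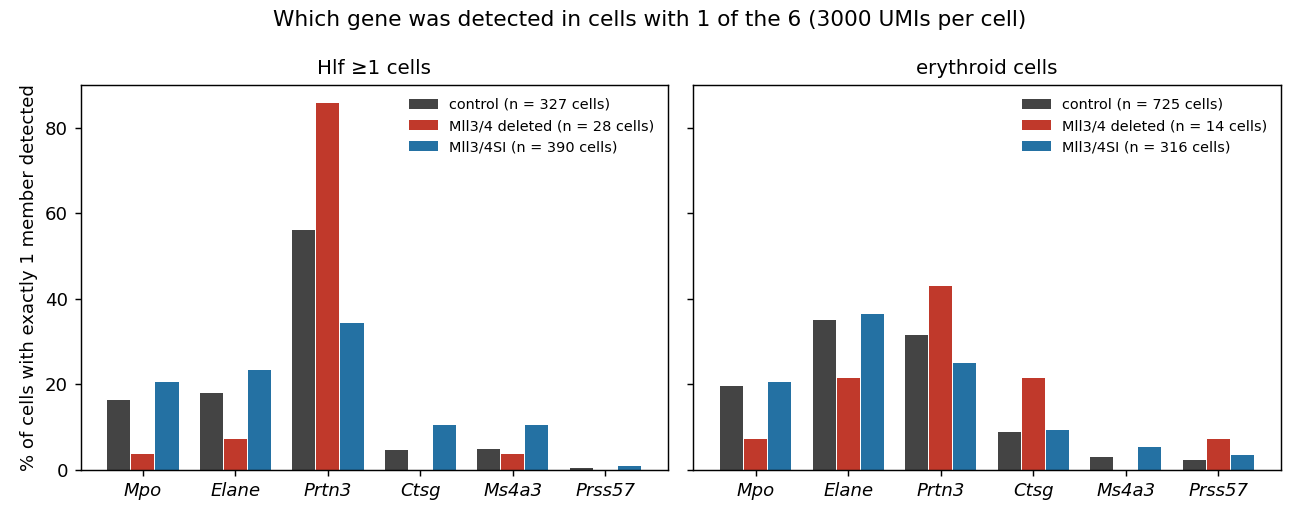
Share of cells with exactly 1 of the 6 genes detected that carried each gene, in Hlf+ cells (left) and erythroid cells (right) of the 3 Kit+ libraries, with each cell thinned to 3000 UMIs and cell numbers in the legend. Prtn3 leads in Hlf+ cells at 55.96%, 85.7% and 34.4%, while Elane leads in erythroid cells of control and SI. The deleted bars rest on 28 and 14 cells.

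Fcer1a+ cells carried the members at low levels. In control the sum was 9253 CPM (9096 to 9412) and in SI 6079 CPM (6051 to 6106), and the 4 deleted cells held 85 UMIs of the 6 genes in all. Of the 4 members compared in the deleted cells 0 were higher and 4 at least 1.5-fold lower, where 3.78% of all genes were higher, 0.0676% by 1.5-fold, and 49.6% at least 1.5-fold lower, so these few cells say nothing of the members. Mpo stood at 4004 CPM in control and 3169.9 CPM in SI, a ratio of 0.792 (0.771 to 0.813). Elane stood at 1717 and 494 CPM, a ratio of 0.288 (0.276 to 0.300). That control level rested on 6 of the 127 cells, which carried at least 30000 CPM of the members and held 75.8% of the gate's Elane UMIs. In the 121 control and 2287 SI cells below 30000 CPM, a split made after the values were seen, Elane stood at 452 and 261 CPM, a ratio of 0.578 (0.532 to 0.630). The summed ratio there was 0.797 (0.779 to 0.815), and Mpo lay at 0.831, Prtn3 at 0.594, Ctsg at 0.742 and Ms4a3 at 1.44 times control. Below 30000 CPM all members but Ms4a3 thus had lower sums in SI, in cells split by the level of these same genes. Elane there lay near the 425 CPM of control erythroid cells and below the 334 CPM of SI ones. SI Prss57, at 13.4 CPM, lay near the 13.1 CPM of SI erythroid cells. At such levels background and a cell's own transcripts cannot be told apart. In the 6 control and 54 SI cells at or above 30000 CPM the summed ratio was 0.948, with Elane at 0.464 but Mpo at 1.48 and Ms4a3 at 1.42 times control. Prss57 stood at 68.8 and 18.4 CPM. The SI levels of Elane and Prss57 in the whole gate compare with 334 and 13.1 CPM in SI erythroid cells, so as sums they lay not far above background. Per cell the 6 genes had a median of 1638 CPM in SI Fcer1a+ and 347 CPM in SI erythroid cells. Their sums there were 6079 and 1418 CPM, so both sums lay above the median cell. Prtn3 stood at 1511 and 776 CPM and Ctsg at 1459 and 967 CPM, both lower in SI. At 3000 UMIs Elane was detected in 54.3% (45.3 to 63.2) of control and 42.2% (40.2 to 44.2) of SI Fcer1a+ cells, and Ms4a3 in 58.3% and 57.4%. Without thinning the shares were 79.5% and 82.4% for Elane and 78.7% and 78.1% for Ms4a3, at median depths of 10348 and 11699 UMIs.

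Of the 5 members with enough UMIs to compare in Fcer1a+ cells, Elane, Prtn3 and Ctsg were at least 1.5-fold lower in SI, against 2.61% of all genes, and Ms4a3 alone was higher, where 83% of all genes were and 15.7% by 1.5-fold. These shares depend on the limit of 100 UMIs, since control held 1424407 UMIs in this gate and SI 30769683. With a limit that favours neither library the same 5 members were compared, and 5.27% of 2469 genes were 1.5-fold lower, 4.05% 1.5-fold higher and 58.2% higher. The members' makeup differed too, with Ms4a3 at 10.7% of their UMIs in SI Fcer1a+ cells and 5.34% in control, and Elane at 8.12% and 18.6%. In SI erythroid cells Elane made up 23.5% of the members' UMIs. Mast cell and basophil genes summed to 3244 CPM in SI and 2873 CPM in control Fcer1a+ cells, and the basophil protease gene Mcpt8 stood at 28.01 and 204 CPM, so other genes of the gate differed too. The 9 neutrophil genes summed there to 553 CPM in SI and 70.9 CPM in control, and the 5 late granule genes to 339 and 21.1 CPM. The 8 erythroid genes summed to 186 and 488 CPM and 3 T or NK cell genes to 41.5 and 527 CPM. Of that last list Cd3e had no UMI in either library there, so it is not read as T or NK cell content. Erythroid background cells of SI and control held 138 and 38.8 CPM of the neutrophil list and 62.2 and 14.9 CPM of the late one. Neutrophil markers were thus higher in SI where most members were lower, but in background cells too. Their part in the member ratios was not tested. When cells were thinned to 3000 UMIs before gating, 40 control and 1322 SI cells remained, the SI ratio was 1.41 for Elane, 1.05 for Mpo and 0.881 for the sum.

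Cebpe+ cells were grouped by their late granule transcripts, as the summed UMIs of Ltf, Camp, Ngp, Lcn2 and Cd177 per 3000 UMIs of the cell. With 0 such UMIs the members summed to 46860.1 CPM (46681 to 47039) in 1875 control, 58819 CPM (58188 to 59456) in 188 deleted and 50795 CPM (50581 to 51009) in 1420 SI cells. With 1 to 9 they summed to 52665, 67947 and 65361 CPM, from 266, 19 and 156 cells. With 10 or more they summed to 13787 CPM (13266 to 14322), 3821 CPM (3232 to 4486) and 8960.5 CPM (8525 to 9413), from 64, 13 and 59 cells. In this random draw of UMIs the members were highest in each library where 1 to 9 late UMIs were found and lowest where these were abundant. Over 20 other draws, added after seeing the data, that order held in 20 for control, 20 for SI and 17 for deleted cells. The groups with 1 to 9 then lay at 50176 to 54457 CPM in control, 52450 to 69551 CPM in 18 to 31 deleted cells and 60246 to 64506 CPM in SI, so the SI value above lies outside the range of the other draws and the counting intervals do not cover this choice. The groups with 1 to 9 held 12.1% of control, 8.64% of deleted and 9.54% of SI Cebpe+ cells in the first draw. A further draw gave 12.2%, 11.8% and 10.03%, so the order of deleted and SI changed with the draw. As background, at the same depth 1 to 9 late UMIs were found in 17 of 2286 control (0.744%), 0 of 58 deleted (at most 6.16% by the exact interval) and 9 of 944 SI erythroid cells (0.953%). In the first draw control was lowest in the first pair of groups and highest in the last, and the last 2 deleted values rest on fewer than 20 cells each.

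In that draw single members followed the sum. Mpo stood at 16433, 17962 and 3635 CPM along these groups in control, and at 19074, 22378 and 2023 CPM in SI. Elane stood at 15781, 18503 and 5766 CPM in control, and at 15479.8, 22506 and 3684 CPM in SI. From the first group to the last, Mpo thus fell more steeply than Elane in control and in SI. The 5 late genes summed over all Cebpe+ cells to 1452 CPM in control, 2671 CPM in deleted and 2626 CPM in SI cells, and their part in the member ratios of that gate was not tested further.

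**Figure D5:**
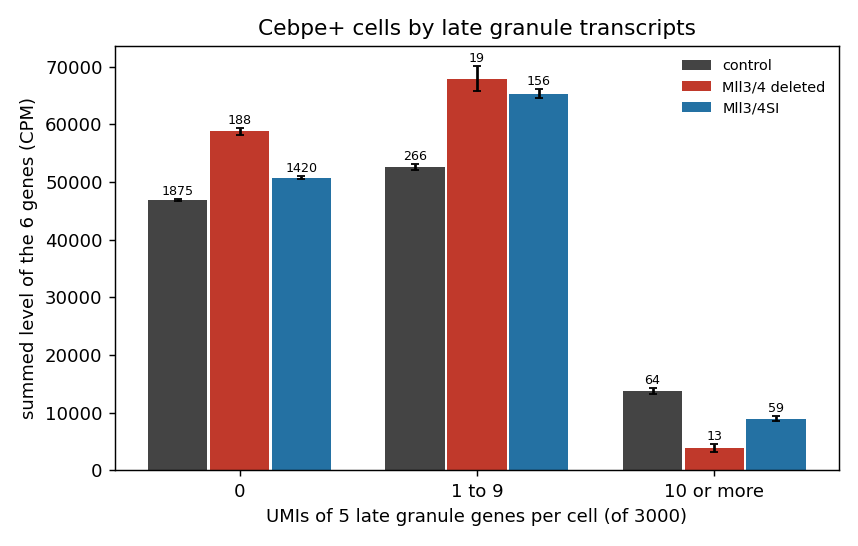
Summed CPM of the 6 genes in Cebpe+ cells of the 3 Kit+ libraries, grouped by the UMIs of 5 late granule genes in the cell after thinning to 3000 UMIs. Bars start at 0, error bars are exact Poisson 95% intervals, and cell numbers stand above the bars. The groups with 10 or more late UMIs lie at 13787, 3821 and 8960.5 CPM, below all others.

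Cells set aside for B-lineage transcripts carried few UMIs of the members. In the deleted library 12477 such cells in none of the gates carried 141 CPM of the 6 genes, and in the control B220lo library 11668 carried 100.1 CPM. Those that also met a myeloid gate carried more. The 57 deleted B-lineage cells that were also Cebpe+ stood at 28963 CPM, the 136 that were also Cd34+ at 19230.3 CPM and the 314 that were also F13a1+ at 12725 CPM. Whether these barcodes held 1 cell or more was not tested beyond the doublet score.

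The other 37 genes of the pathway were taken from 5 lists and read by the same 1.5-fold limit. Of the 7 genes that process, pack and fold the proteins (Ctsc, Srgn, Calr, Canx, Pdia3, Pdia6 and Hspa5), 0 passed it in either library in Hlf+, Cd34+, Cebpe+ or F13a1+ cells. Their median log2 ratio was 0.29, 0.39, 0.28 and 0.34 in the deleted library and 0.0248, 0.000646, 0.0897 and 0.17 in SI. Calr, the calreticulin gene, whose product helps fold myeloperoxidase, stood at 785 CPM in control, 1080.3 CPM in deleted and 954 CPM in SI Cd34+ cells, below the limit in both. The 6 genes of granule transport and release (Rab27a, Unc13d, Ap3b1, Lyst, Stxbp2 and Vps13b) held 0 past the limit in these gates.

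Among inhibitors the secretory leukocyte protease inhibitor gene Slpi, whose product blocks elastase and cathepsin G, was lower. In SI it stood at 98.6 CPM against 307 CPM in control Cd34+ cells, and its ratio was 0.398 (0.377 to 0.419), 0.321 (0.314 to 0.328), 0.646 (0.627 to 0.666) and 0.504 (0.492 to 0.517) in Hlf+, Cd34+, Cebpe+ and F13a1+ cells. In the deleted library it passed the limit in Hlf+ and Cebpe+ cells, at 0.629 (0.548 to 0.719) and 0.535 (0.499 to 0.573). There 10.9% and 7.92% of all genes were 1.5-fold lower. Stfa1, a stefin gene for cysteine protease inhibition, had 0 UMIs in control and 111 in SI Cd34+ cells, and 18 and 110 in Cebpe+ cells, a ratio of 7.43 (4.49 to 12.99). Stfa1 and Lyz2 belong to families with near-identical copies, so their counts are uncertain. Serpinb1a, another inhibitor of neutrophil serine proteases, stayed within the limit, at 0.799 in deleted and 0.908 in SI Cd34+ cells. Of the 5 inhibitor genes 3 or 4 had enough UMIs to compare, and at most 1 was lower and at most 1 higher in any of these gates.

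Of 11 other lysosomal or granule content genes 9 to 11 could be compared in these 4 gates, and Lyz2 alone passed the limit. This lysozyme gene stood in SI at 3.48 times control in F13a1+ cells (299 and 1043 CPM) and 1.80 times in Cebpe+ cells. In the deleted library it stood at 0.617 times control in Cd34+ cells, where 8.57% of all genes were 1.5-fold lower. Of 8 transcription factor genes tied to these promoters, Cebpe, which also defined a gate, was lower in SI Hlf+ (0.501) and Cd34+ cells (0.575), and Irf8 in SI Cd34+ cells (0.547). Cebpa, Spi1, Runx1, Cbfb, Myb and Gfi1 passed in none of the 4 gates. In SI Fcer1a+ cells Gfi1 was higher, at 2.39 (1.48 to 4.12), and Cebpa (0.557), Cd63 (0.363) and Hexa (0.661) were lower. These 4 are the pathway genes past the limit there, and 3 of the 5 lists held 0. The UMI limit for comparing a gene was read in the higher library. SI held 30769683 UMIs in this gate and control 1424407, so genes higher in SI passed it more readily. Among all genes so compared 15.7% were 1.5-fold higher in SI and 2.61% 1.5-fold lower. Whether Gfi1 passes a UMI limit that favours neither library was not tested, so no difference is drawn from its ratio.

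Genes next to the members were read in the same cells. Between Prss57 and Prtn3 the annotation places 3 protein-coding genes besides the one that overlaps Prtn3, and Ptbp1, the splicing factor gene among them, stood at 211, 234 and 222 CPM in control, deleted and SI Cd34+ cells. Plppr3, which overlaps the 5′ end of Prtn3, stood at 147, 193 and 161 CPM. Cfd, the complement factor D gene next to Elane, stood at 0.150, 0.212 and 0.125 CPM. Near Ctsg on chromosome 14, Mcpt8 stood at 23.996, 17.1 and 24.6 CPM in Cd34+ cells, while Mcpt4 stayed at 0.0806 CPM in control and 0.183 CPM in SI. Each of these lay below the 2984 CPM of Ctsg and the 8465 CPM of Elane in control.

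Across cells the members moved together, as a description of cells that share a library and its depth. Over Cd34+ cells the Pearson correlation of log levels between Mpo and Ctsg was 0.93 in control (6853 cells), 0.93 in deleted (520 cells) and 0.90 in SI (8795 cells). Between Elane and Ms4a3 it was 0.83, 0.84 and 0.55, and between Ms4a3 and Prss57 0.62, 0.63 and 0.38. SI had the lowest of the 3 correlations in 13 of the 15 pairs of members, among them Mpo and Elane at 0.82, 0.84 and 0.70. Of the Cd34+ cells 1.46% in control, 0.385% in deleted and 21.8% in SI were also Fcer1a+. The part of this mix of cells in the correlations was not tested. Among 12479 genes, ranked by their correlation with the members' sum over the control cells outside the B lineage alone, the first were Atp8b4, a phospholipid flippase gene, with correlations of 0.82, 0.77 and 0.72 in control, deleted and SI, Gm11505 with 0.78, 0.77 and 0.79, and Alas1, the gene of the first enzyme of haem synthesis, with 0.77, 0.79 and 0.68. Clec12a, Anxa3, Ly6c2, Gstm1, Hp, Pgam1 and Fcgr3 followed, from 0.75 down to 0.71 in control. Alas1 stood at 439.6 CPM in control, 639 CPM in deleted and 278 CPM in SI Cd34+ cells, the same order as Mpo, and Atp8b4 at 447, 559 and 590.3 CPM, the order of Ms4a3.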

How the data were processed

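Raw UMI counts per gene and cell barcode, as the authors deposited them, came from Cell Ranger (7.1.0, per the submitters' processing notes and the file headers), with mm10 as the build. Tables of receptor contigs were not used here. In Python 3.11.15 (numpy 2.4.6, scipy 1.17.1, pandas 2.3.3) barcodes were kept from 1000 UMIs and 500 genes up, if no more than 10% of their UMIs came from mitochondrial genes. Scrublet in scanpy 1.11.5 scored doublets (expected share 8%), and those at a score of 0.25 or more were removed, namely 840 control, 1168 deleted, 580 SI and 949 B220lo barcodes. B-lineage cells (10 genes at 3000 CPM or more of the cell) were left out of the gates. Counts were summed per gate and library and given as CPM with exact Poisson intervals, ratios with exact conditional binomial intervals and shares with Clopper-Pearson intervals, all at 95%.

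Log2 ratios carried a pseudocount of 1 CPM, and a gene was compared where the higher library had at least 100 UMIs. The ratio step was run on simulated counts with planted changes and counting error only. That run held no spread between cells or libraries, so it is no check on either. No test between groups was made, since each group had 1 library. Besides the members, pathway genes were named where they passed 1.5-fold in a gate, at most 4 per gate and library, and the 10 genes most correlated with the members' sum (log of 1 plus counts per 10000, genes in at least 1% of cells). The members, gates and lists were chosen with earlier results of these data known. Alternatives were doublets kept, at least 3000 UMIs, 1 more gate UMI, exclusive gates, no B-lineage gate and centring on the median gene. Thinned gating, cells of other lineages left out, an even limit on UMIs for the shares over all genes, and a split of Fcer1a+ cells by member level were added after the data were seen. Cells of other lineages were those with a UMI of Fcer1a, Ms4a2, Mcpt8, Prss34, Cma1, Klf1, Car1 or Pf4.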

Additional observations from a re-analysis of the deposited data

Results flagged for a closer look

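Under the same contrast, SI over control, 5 members lay below control in Fcer1a+ cells and above it in a committed gate, with counting intervals on either side of 1. For each member the gates given are those with its lowest and highest ratio among gates whose interval left out 1, so they were picked as extremes. The difference between the gates was not tested. Mpo lay at 0.792 times control in Fcer1a+ and 1.16 times in Cebpe+ cells. Elane lay at 0.288 times in Fcer1a+ and 1.02 times in F13a1+ cells, and Prtn3 at 0.514 times in Fcer1a+ and 1.12 times in Cebpe+ cells. Ctsg lay at 0.663 times in Fcer1a+ and 1.10 times in Cebpe+ cells. Prss57 lay at 0.267 times in Fcer1a+ and 1.13 times in F13a1+ cells. Ms4a3 was above control in both kinds of gate, but lay at 0.688 times control in cells that were Fcer1a+ alone. With cells thinned before gating, the Fcer1a+ values turned to 1.05 for Mpo and 1.41 for Elane. The control level of Elane in Fcer1a+ cells rested on 6 cells that held 75.8% of its UMIs there. Its F13a1+ ratio kept its direction in 6 of 8 alternatives. For Prss57 the Cebpe+ interval, 0.996 to 1.06, includes 1.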

How the results depend on the processing

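Values are log2 ratios of the summed members to control, for Hlf+, Cd34+, Cebpe+ and F13a1+ cells in that order. As reported they were 0.53, 0.31, 0.28, 0.36 in deleted and -0.38, -0.29, 0.14, 0.13 in SI cells. With doublets kept they were 0.47, 0.38, 0.43 and 0.48 in deleted and -0.30, -0.21, 0.21 and 0.20 in SI. With 1 more UMI of the gate gene they were 0.21, 0.26, 0.18 and 0.31 in deleted and -0.67, -0.33, 0.16 and 0.24 in SI. In cells of 1 gate only they were 0.47, 0.86, 0.28 and 1.29 in deleted and 0.22, 0.82, 0.17 and 0.0496 in SI. Without the B-lineage gate the deleted values were 0.45, 0.19, 0.15 and -0.0290, and the SI values moved by less than their counting interval. Centred on the median gene they were 0.62, 0.34, 0.36 and 0.39 in deleted and -0.41, -0.33, 0.11 and 0.0873 in SI, though that median is over genes passed by the 100-UMI limit, which favours genes higher in the larger library, also in Fcer1a+ cells. With a limit favouring neither, the medians lay between 0.00581 and 0.0476 in these 4 gates and at 0.0518 in SI Fcer1a+ cells. With cells of other lineages left out, chosen after seeing the data, they were 0.50, 0.20, 0.21 and 0.25 in deleted and -0.20, -0.0246, 0.14 and 0.19 in SI. With cells thinned before gating, also chosen after seeing the data, they were 0.80, 0.45, 0.0243 and 0.35 in deleted and -0.26, -0.30, 0.0771 and 0.17 in SI. The filter of at least 3000 UMIs moved none of these beyond its counting interval. In SI Fcer1a+ cells the value of -0.61 became -0.45 with doublets kept, -0.29 with 1 more UMI, -1.34 in cells of 1 gate, -0.80 when centred and -0.18 when thinned. In the 4 deleted Fcer1a+ cells -2.21 became -1.87, -0.69, -1.63 and -1.15 with 1 more UMI, in cells of 1 gate, centred and thinned.

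Members past the 1.5-fold limit as reported changed direction in a few cases. In the 17 deleted cells that were Hlf+ alone Prtn3 lay at -0.73, Ms4a3 at -0.0128 and Prss57 at -1.31, and in SI cells that were Cd34+ alone Elane lay at 0.27. Thinning gave 0.0739 for Prtn3 in deleted and 0.50 for Elane in SI Fcer1a+ cells. Of 192 member values per library under these alternatives in the 4 gates, 178 in deleted and 175 in SI kept the direction as reported. Several alternatives kept nearly the same cells, so this tally is no test. In cells of 1 gate alone 6 of 6 members in SI Cd34+ and 4 of 6 in SI Hlf+ cells lay above control, where 1 of 6 did as reported. In deleted Hlf+ cells 1 of 6 then did, where 6 of 6 did as reported. The cause was not tested for any change. Each member count rests on 1 library, deleted gates held at most 520 cells, and B-lineage, sex and depth differences of the deleted library cannot be told apart from its genotype. No paired analysis was possible because each group has 1 library.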
